A study of Mus musculus with 8 samples.

Results

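The genes described here encode the respiratory chain of mitochondria: NADH dehydrogenase (complex I), the cytochrome bc1 complex (complex III), cytochrome c oxidase (complex IV) and ATP synthase (complex V), with the assembly factors that share their gene symbols. They were chosen by symbol alone, as Ndufa, Ndufb, Ndufc, Ndufs, Ndufv, Uqcr, Cox4 to Cox8 and Atp5 genes of the nucleus and the mt-Nd, mt-Co, mt-Atp and mt-Cytb genes of the mitochondrial genome, without pseudogene symbols. Of 34980 genes in the files, 102 matched, and the 86 with a total of 100 or more counts over the libraries were kept. Of these, 79 are nuclear and 7 are mitochondrial genes. By complex, 41 belong to complex I, 9 to complex III, 14 to complex IV and 13 to complex V, and 9 are assembly factors. Ndufa4 is counted with complex IV, where its protein is now placed.

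The tissue was visual cortex of B6D2 mice, of which layer IV was dissected by hand, and its total RNA was sequenced. The first group was heterozygous for the homeobox gene Otx2 at postnatal day 30 (P30), written Otx2 +/- in the sample labels and Otx2 +/GFP in the design text. The second group was wild type (Otx2 +/+) at P100, and the third was wild type at P30. Each group had 2 libraries, and each library pooled tissue of 4 mice. The 2 heterozygous P100 samples were not analysed here. Nothing in the labels says how far the pools of a group were independent, so p-values here rest on a spread that may be in part technical.

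The respiratory chain passes electrons from NADH and succinate to oxygen and stores the energy as a proton gradient, from which ATP synthase makes ATP. Complexes I, III, IV and V mix subunits encoded in the nucleus with a few that mitochondrial DNA encodes, so that the nuclear and the mitochondrial genome both supply each of these complexes. Neurons rely on it heavily for ion pumping, and fast-spiking interneurons, which the labelled layer holds, are known for their high demand.

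The libraries held 11016841 to 15308781 counts at the gene level, and 15841 genes passed the filter on low counts, all 86 members among them. Otx2 itself had 0 counts in every library but heterozygous P30 replicate 2, where it had 73, so its level checks nothing about the genotype. Replicate 2 of the heterozygous group also held 8966 counts of the choroid plexus gene Ttr, against 0 or 1 in each of the other libraries. Of 18 choroid plexus markers, 17 were in the files and all 17 were highest in that library, with a summed level of 693 CPM (counts scaled to a common library total), against 39.2 CPM in heterozygous replicate 1, 20.9 and 21.9 CPM in the wild-type P100 libraries and 45.1 and 39.2 CPM in the wild-type P30 libraries. Xist, transcribed from the inactive X, was present in both heterozygous libraries at 785 and 924 CPM, against 0.362 and 0.264 CPM in wild-type P100 and 0.639 and 0.487 CPM in wild-type P30 libraries. Levels of Y-linked Ddx3y were 2.48 and 1.04 CPM in the Otx2 +/- libraries, against between 146 and 156 CPM in the 4 wild-type libraries. Genotype and this difference in sex-linked genes cannot be told apart. In bulk tissue, fewer cells of a type and less RNA per cell cannot be told apart either. The 10 excitatory neuron markers summed to 3111 and 3392 CPM in the heterozygous libraries, 3020 and 3198 CPM in wild-type P100 and 3209 and 3789 CPM in wild-type P30.

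Levels per transcript length were highest for 6 of the 7 mitochondrial members (the plot of levels per kilobase). The 7 stood between 218 and 5084 CPM per kilobase as means over the 6 libraries, with a median of 1004. Of their 50-base windows, 62.2% of mt-Nd4 and 51.1% of mt-Co1 also occur in other genes. For mt-Nd1, mt-Cytb and mt-Nd6 the share is 0%, so the order among the 7 is uncertain. The 78 nuclear members with a known transcript length stood between 1.71 and 387 CPM per kilobase, with a median of 35.1. The ranges overlapped, since mt-Nd6 at 218 CPM per kilobase lay below 4 nuclear members. The 6 mitochondrial genes under the minimum of 100 counts, which are not among the 7, had 0 to 3.10 CPM per kilobase. Among nuclear genes the beta and alpha subunits of the F1 part of ATP synthase led, Atp5b with 387 and Atp5a1 with 303 CPM per kilobase, followed by Cox4i1 of complex IV with 296. The medians of nuclear complexes I, III, IV and V were 43.1, 50.5, 58.3 and 36.7 CPM per kilobase. Assembly factors, which build the complexes without staying in them, had a median of 10.5 and a highest value of 25.4 CPM per kilobase. Ndufb4 had the lowest level, 1.71 CPM per kilobase, and 37.0% of its 50-base windows also occur in transcripts of 3 other genes, so its count is uncertain.

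**Figure D1:**
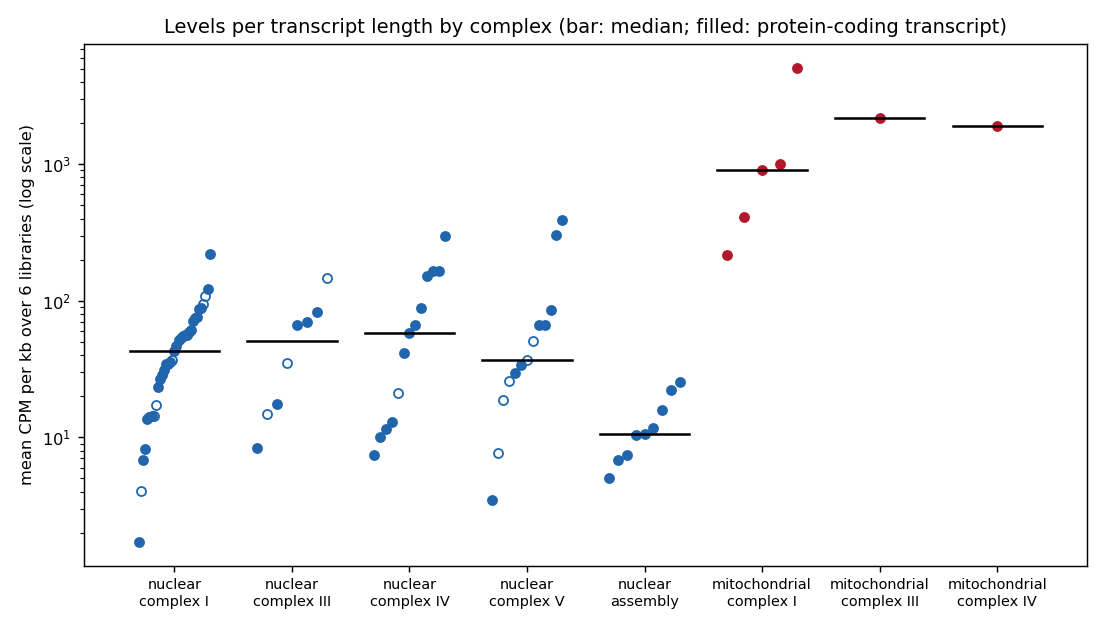
Mean level over the 6 libraries in CPM per kilobase of transcript, on a log axis, for each member by genome of origin and complex. Points are genes, filled where the transcript counted is annotated as protein coding and open where it is not, and bars are medians; the mitochondrial members run from 218 to 5084 and the nuclear members from 1.71 to 387.

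Subunit isoforms that are known from muscle, testis, lung or hypoxic cells were nearly silent, 7 of 8 staying under 100 counts in all. Cox8c had 0 counts, Cox8b 7, Cox6b2 30, Cox4i2 41, Ndufa4l2 42, Cox7b2 45 and Cox7a1 47. The exception was Cox6a2, the heart and skeletal muscle isoform of subunit 6a, with 7.10 and 7.08 CPM per kilobase in heterozygous P30 libraries, 6.92 and 6.60 in wild-type P100 libraries and 7.92 and 8.69 in wild-type P30 libraries. It made up 9.0% to 12.5% of the sum of Cox6a1 and Cox6a2 per kilobase in every library. Striated muscle markers summed over 12 genes to 21.4 and 19.4 CPM in heterozygous, 20.6 and 27.9 CPM in wild-type P100 and 21.3 and 20.6 CPM in wild-type P30 libraries, with Actc1 and Tnnt3 at 0 throughout. Parvalbumin interneuron markers summed over 12 genes to 1547 and 1540 CPM in heterozygous libraries. They summed to 1517 and 1633 CPM in wild-type P100 and 1421 and 1454 CPM in wild-type P30 libraries. Which cells the Cox6a2 counts came from was not tested. The exon bases of Cox6a2 overlapped another gene over 10.3% of their length.

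Of the 13 protein-coding genes of mitochondrial DNA, 7 were counted in depth and 6 were nearly absent from the deposited counts (the plot of counts against shared sequence). mt-Nd1 had 400255 counts over the 6 libraries, mt-Co1 237923, mt-Cytb 204161, mt-Nd4 113941, mt-Nd2 77825, mt-Nd5 61125 and mt-Nd6 9257. At the other end, mt-Nd3 had 84 counts, mt-Co2 10, mt-Atp6 7, mt-Co3 6, and mt-Nd4l and mt-Atp8 had 0. A count of 0 allows a level of up to 0.195 to 0.274 CPM per library, taken as 3 counts and covering counting error only. All 13 belong to complexes that cannot be built without them. mt-Co2 and mt-Co3 encode core subunits of cytochrome c oxidase beside mt-Co1. mt-Atp6 and mt-Atp8 encode the mitochondrial subunits in the membrane part of ATP synthase, so complex V kept no mitochondrial member.

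Of the 6 low genes, 5 have near-identical annotated copies in the nuclear genome. Between 98.0% and 100% of the 50-base windows of mt-Nd3, mt-Nd4l, mt-Co2, mt-Co3 and mt-Atp6 also occur in a transcript of another gene in GENCODE M21 (GRCm38). The copies with the highest shares lie together on the minus strand of chromosome 1, between chr1:24611535 and chr1:24616197, and are annotated as unprocessed pseudogenes: Gm28438 holds 98.0% of the windows of mt-Nd3, Gm10222 98.8% of mt-Nd4l, Gm28661 99.5% of mt-Co2, Gm28437 99.9% of mt-Co3 and Gm10925 99.5% of mt-Atp6. The same block holds 62.2% of the windows of mt-Nd4 in Gm28439 and 28.7% of those of mt-Co1 in Gm29216. On chromosome 2, Gm13340 holds 27.5% of the mt-Co1 windows, and over all other genes 51.1% of them are shared. Both mt-Nd4 and mt-Co1 kept deep counts. mt-Nd1, mt-Cytb and mt-Nd6 share no window with any other annotated gene. The remaining low gene, mt-Atp8, had 0 counts and shares 0% of its windows with annotated transcripts, the only sequences searched. It lies at chrM:7766-7969, after the end of mt-Co2 (chrM:7696) and reaching past the start of mt-Atp6 (chrM:7927). In the chromosome 1 block, Gm10925 ends at chr1:24614651 and Gm28661 starts at chr1:24614885. Any unannotated bases between them were not searched, so a copy of mt-Atp8 there was not tested. How the authors' counting treated reads that match several places is not given in the sources used here, and the part of these copies in the low counts was not tested. A 50-base stretch from the middle of mt-Co3 (chrM:8974-9023, plus strand, GRCm38) and one of mt-Nd1 (chrM:3204-3253, plus strand, GRCm38) are shown because they carry this contrast; the capitals mark the bases that also stand in Gm28437, and the mt-Nd1 stretch is in no other annotated gene.
mt-Co3: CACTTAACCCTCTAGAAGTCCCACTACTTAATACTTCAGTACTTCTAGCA
mt-Nd1: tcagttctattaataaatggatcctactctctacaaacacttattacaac

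**Figure D2:**
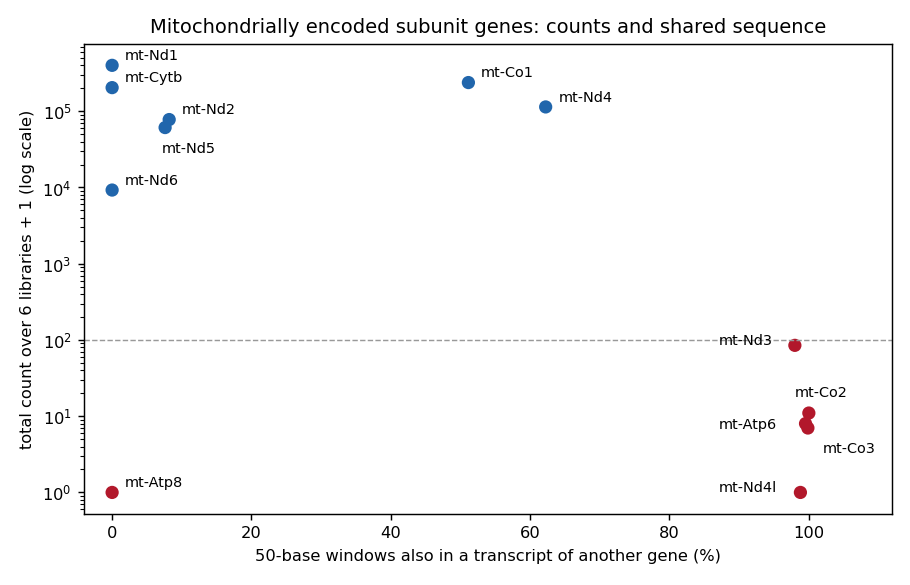
Total count over the 6 libraries plus 1, on a log axis, against the percentage of 50-base windows found in a transcript of another gene, for the 13 protein-coding genes of mitochondrial DNA. The dashed line is the minimum of 100 counts for a member; 5 of the 6 genes under it stand at 98.0% or more, and mt-Atp8 stands at 0%.

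Age was compared within wild type, P100 against P30. No member rose and 5 of 86 fell (edgeR quasi-likelihood test, Benjamini-Hochberg adjusted p under 0.05), a share of 5.81%, where 7.54% of all genes tested were called and 4.54% of all genes tested were called as lower. The 5 were Ndufb11, Ndufa8 and Ndufa1 of complex I, Uqcr10 of complex III and mt-Nd6 of complex I, and the nuclear 4 encode accessory subunits. The median log2 difference was -0.02 over the 86 members and 0.00 over all genes tested. Within 1.5-fold stood 84 of 86 members (97.7%), against 89.2% of all genes tested. An unadjusted p under 0.05 was reached by 15 of 86 members (17.4%), against 22.7% of all genes. In 29 members (33.7%) the P100 and P30 libraries did not overlap, against 51.2% of all genes.

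Ndufb11, an X-linked accessory subunit of the membrane arm of complex I, had 20.4 and 19.4 CPM in wild-type P100 libraries, against 31.7 and 26.4 CPM in wild-type P30 libraries. Both P100 libraries were below both P30 libraries, a fall of 1.45-fold (log2 difference -0.54, SE 0.12, adjusted p = 0.0169 by edgeR). Of its exon bases 12.9% overlap another gene. Ndufa1, also X-linked and needed for assembly of the membrane arm, had 18.5 and 17.7 CPM at P100, against 25.5 and 24.1 CPM at P30 in wild-type libraries. The groups did not overlap, and the level at P100 was 1.37-fold lower (log2 difference -0.45, SE 0.11, adjusted p = 0.0260 by edgeR). Cox7b, the third X-linked member, had 38.5 and 44.6 CPM at P100, against 38.3 and 41.2 CPM at P30 (log2 difference 0.06, SE 0.12).

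Ndufa8, an accessory subunit of the side of complex I that faces the intermembrane space, had 40.3 and 43.4 CPM in wild-type P100 libraries, against 57.3 and 52.8 CPM in wild-type P30 libraries. These groups did not overlap either, and the fall was 1.32-fold (log2 difference -0.40, SE 0.10, adjusted p = 0.0245 by edgeR). Uqcr10, a small accessory subunit of complex III, had 14.4 and 14.6 CPM at P100, against 25.3 and 17.8 CPM at P30 in wild-type libraries. Its P30 libraries differed more from each other than the lower of them did from the P100 libraries, and the fall was 1.47-fold (log2 difference -0.56, SE 0.16, adjusted p = 0.0473 by edgeR). The Uqcr10 transcript counted is annotated as a processed transcript; with the most counted protein-coding transcript in its place the log2 difference was -0.61 and the call was kept.

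mt-Nd6 is the only protein-coding gene on the light strand of mitochondrial DNA, at chrM:13552-14070 on the minus strand. It had 103 and 67.8 CPM in wild-type P100 libraries, against 129 and 128 CPM in wild-type P30 libraries. The P100 libraries lay below the P30 libraries but far apart from each other, and the fall was 1.49-fold (log2 difference -0.58, SE 0.15, adjusted p = 0.0301 by edgeR). The other 6 mitochondrial members, all on the heavy-strand transcript, had log2 differences from -0.20 (mt-Cytb) to 0.03 (mt-Nd5 and mt-Co1), and none passed the test. As a share of the other 6 mitochondrial members, mt-Nd6 made up 0.749% and 0.591% in wild-type P100 libraries, against 1.18% and 0.814% in wild-type P30 libraries. Its end overlaps mt-Nd5 on the opposite strand over 2.70% of its exon bases, and whether the counting used strand is not given in the sources used here.

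A fit without 1 wild-type library left 1 in its group, and in each such fit fewer of all genes were called for age. A lost call there does not by itself set a member apart. Each of the 5 calls for age was lost without 1 or more single libraries. Without wild-type P100 replicate 2 none held, with adjusted p (edgeR) at 0.114 for Ndufb11, 0.0752 for Ndufa8, 0.140 for Ndufa1, 0.189 for Uqcr10 and 0.242 for mt-Nd6, whose log2 difference was then -0.31. Without wild-type P30 replicate 1 none held either, with adjusted p (edgeR) at 0.0961, 0.100, 0.0914, 0.305 and 0.0976 in the same order of genes; the log2 difference of Uqcr10 was -0.30, and mt-Cytb was called at -0.52 (adjusted p = 0.0246). Leaving out the first P100 library kept only mt-Nd6 of the 5, at a log2 difference of -0.92, with adjusted p (edgeR) of 0.0662 for Ndufb11, 0.132 for Ndufa8, 0.0815 for Ndufa1 and 0.183 for Uqcr10, and Atp5f1 (0.56) and Cox5b were called as higher. Leaving out the second P30 library ended the calls of Ndufa1 (adjusted p = 0.0602) and mt-Nd6 (adjusted p = 0.100), while Atp5j2 (-0.58) and Ndufa3 (-0.49) were called as lower. With counts summed over the transcripts of each gene none of the 5 was called (adjusted p by edgeR from 0.0541 for Ndufb11 to 0.0897 for mt-Nd6). DESeq2 called Ndufa8 and Ndufb11 of the 86. Of all genes tested, summed counts called 4.82% and DESeq2 5.13%, against 7.54% in the reported fit. Over the 18 alternatives, log2 differences lay between -0.67 and -0.41 for Ndufb11 and -0.46 and -0.34 for Ndufa8. They lay between -0.49 and -0.41 for Ndufa1, -0.80 and -0.30 for Uqcr10 and -0.92 and -0.31 for mt-Nd6. In the authors' deposited table none of the 86 transcripts had an adjusted p under 0.05 for age, the lowest of the 5 being 0.0826 for Ndufb11.

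The genes lie, in GRCm38 (GENCODE M21), with Ndufb11 at chrX:20615326-20617619 (minus strand), Ndufa1 at chrX:37187588-37191163 (minus strand), Ndufa8 at chr2:36036326-36049406 (minus strand), Uqcr10 at chr11:4701973-4704342 (minus strand), Ndufa4 at chr6:11900292-11907497 (minus strand) and Cox7a2l at chr17:83501918-83517330 (minus strand). Ndufa4 was not called for age, when it had 62.2 and 61.3 CPM in wild-type P100 libraries, against 78.6 and 69.7 CPM in wild-type P30 libraries (log2 difference -0.26, SE 0.09, adjusted p = 0.0892 by edgeR).

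**Figure D3:**
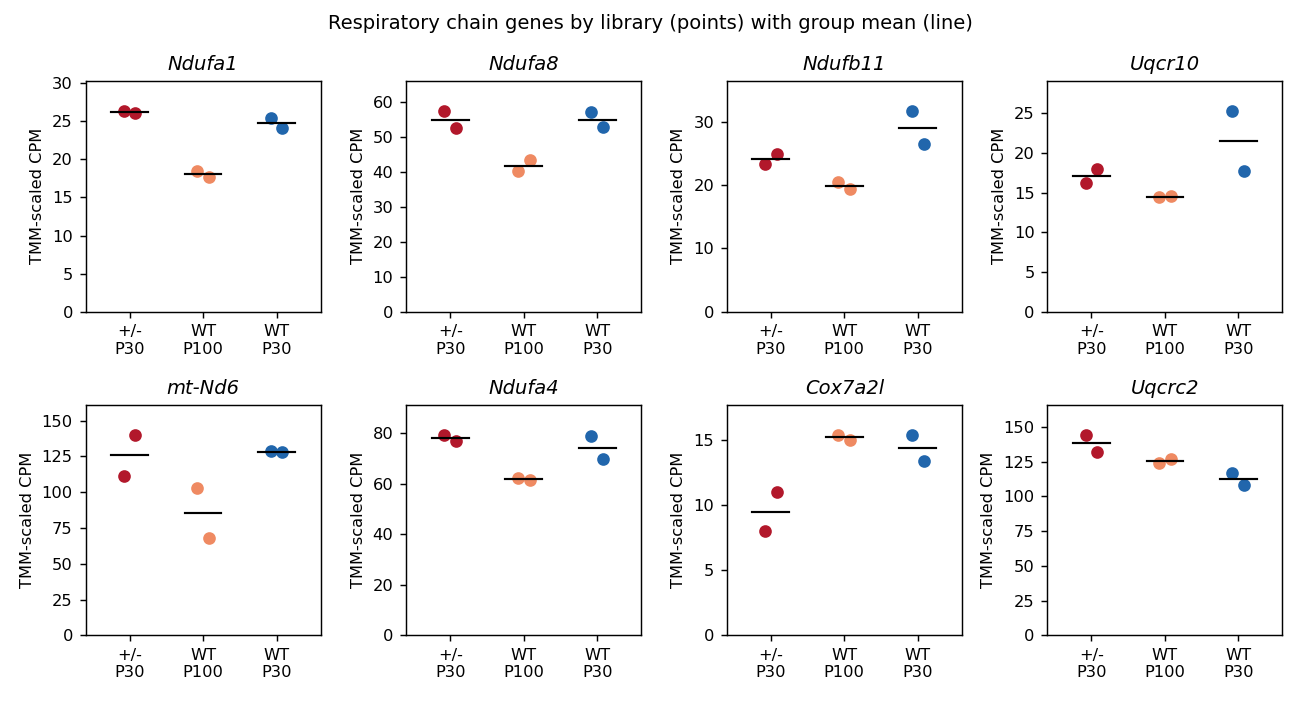
TMM-scaled CPM in each library (points) with the group mean (line) for 8 members, in Otx2 +/- P30, wild-type P100 and wild-type P30 libraries; each vertical axis starts at 0. In the first 5 panels (Ndufa1, Ndufa8, Ndufb11, Uqcr10 and mt-Nd6) both wild-type P100 points lie below both wild-type P30 points, and in Cox7a2l both Otx2 +/- points lie below all wild-type points.

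The promoters of a pair of members are shown because Ndufa8 and Ndufa1 were called in each comparison with the wild-type P100 libraries, which those comparisons share. They run from 250 bases before to 50 bases after the RefSeq start (GRCm38.p6, minus strand, 5′ to 3′): Ndufa8 at chr2:36049289-36049588 and Ndufa1 at chrX:37191189-37191488. Capitals mark a match to the motif of nuclear respiratory factor 1 (GCGCA, any base, then GCGC), here read on the opposite strand; the factor is a regulator of many respiratory chain genes.
Ndufa8: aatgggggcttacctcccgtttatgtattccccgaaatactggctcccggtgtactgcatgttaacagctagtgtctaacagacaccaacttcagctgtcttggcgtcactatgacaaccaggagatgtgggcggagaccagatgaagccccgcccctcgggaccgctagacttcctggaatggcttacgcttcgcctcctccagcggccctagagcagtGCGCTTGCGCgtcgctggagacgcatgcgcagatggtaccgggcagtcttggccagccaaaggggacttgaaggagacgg
Ndufa1: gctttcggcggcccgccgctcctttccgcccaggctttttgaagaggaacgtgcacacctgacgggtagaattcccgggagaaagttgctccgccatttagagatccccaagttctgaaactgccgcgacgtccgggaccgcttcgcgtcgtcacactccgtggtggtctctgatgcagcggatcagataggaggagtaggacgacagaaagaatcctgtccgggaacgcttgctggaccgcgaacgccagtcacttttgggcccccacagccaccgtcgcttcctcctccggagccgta

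Of the 79 nuclear members, 67 matched a RefSeq promoter by symbol, 73 promoters in all. On either strand, the nuclear respiratory factor 1 motif stood in 23.3% of them, against 4.60% of all 32851 promoters of 300 bases. The ETS motif CCGGAAG stood in 19.2% against 8.86%, the estrogen-related receptor motif AAGGTCA in 8.22% against 4.72%, and the YY1 motif AAGATGG in 17.8% against 6.34%. The windows of Ndufa1, Ndufb11 and Uqcr10, also called for age, held none of the 4 motifs. This says only that these letters are not in them. These are matches of letters, not measured binding. The background was all promoters, and no set matched for expression or GC content was compared, so the contrast may not be particular to these genes.

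By complex, the age difference was near 0 in most groups (the plot of differences by complex). The 36 nuclear subunits of complex I had a median log2 difference of -0.02, with 17 above and 19 below 0. The 7 core subunits among them, which carry the electron path, ran from -0.12 to 0.16, and none passed the test. Nuclear complex III had a median of -0.07 over 8 genes, nuclear complex IV -0.03 over 13 and complex V 0.04 over 13. All 9 assembly factors lay above 0, with a median of 0.12 and none past the test, where 7946 of all 15841 genes lay above 0. The nuclear members also shifted together between replicates of a group. Of 79, 57 were higher in wild-type P100 replicate 2 (median log2 of replicate 1 over 2 -0.12) and 55 in wild-type P30 replicate 1 (median 0.10). The signs of members are thus not independent of each other. Ndufaf6, needed for the early assembly of complex I, had 6.66 and 6.42 CPM in wild-type P100 libraries, against 4.20 and 5.42 CPM in wild-type P30 libraries (log2 difference 0.43, SE 0.20, adjusted p = 0.227 by edgeR). Ndufaf3 had 12.2 and 14.1 CPM at P100, against 10.3 and 10.4 CPM at P30 in wild-type libraries (log2 difference 0.34, SE 0.15, adjusted p = 0.178 by edgeR). The libraries of both genes did not overlap between ages.

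The widest age differences that missed the test were those of Cox5b and Ndufb4. Cox5b, a nuclear subunit of complex IV, had 5.94 and 15.9 CPM in wild-type P100 libraries, against 5.75 and 7.09 CPM in wild-type P30 libraries (log2 difference 0.73, SE 0.33, adjusted p = 0.211 by edgeR). Replicate 2 at P100 alone stood high, 30.6% of its windows also occur in 1 other gene, and without replicate 1 the log2 difference was 1.29 with an adjusted p of 0.00798 by edgeR. Ndufb4 had 1.66 and 2.82 CPM at P100, against 0.913 and 1.81 CPM at P30 in wild-type libraries (log2 difference 0.65, SE 0.40). In ATP synthase, Atp5j, a subunit of the peripheral stalk, had 59.8 and 62.7 CPM at P100, against 77.7 and 73.1 CPM at P30 (log2 difference -0.30, SE 0.10, adjusted p = 0.0852 by edgeR). Atp5f1 of the same stalk had 61.8 and 83.7 CPM at P100, against 58.7 and 54.6 CPM at P30 (log2 difference 0.36, SE 0.12, adjusted p = 0.0878 by edgeR). Its counted transcript is annotated as subject to nonsense-mediated decay, and 28.5% of its windows also occur in 2 other genes. Atp5j2 had 17.2 and 20.0 CPM at P100, against 27.6 and 20.4 CPM at P30 (log2 difference -0.36, SE 0.15, adjusted p = 0.153 by edgeR).

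**Figure D4:**
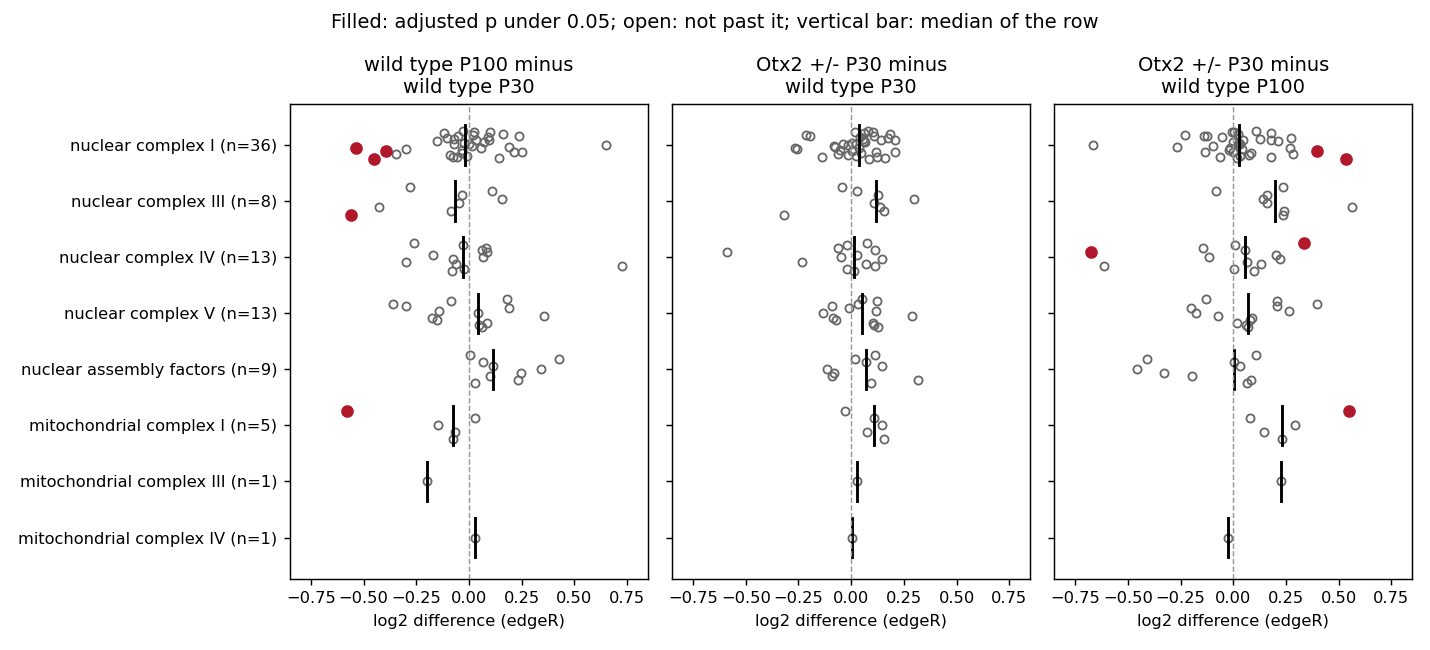
Log2 differences from edgeR for the 86 members by genome of origin and complex, in 3 comparisons: wild-type P100 minus wild-type P30, Otx2 +/- P30 minus wild-type P30 and Otx2 +/- P30 minus wild-type P100. Filled points passed an adjusted p of 0.05, open points did not, and bars are medians; 5 points are filled on the low side for age, none for genotype at P30, and 4 on the high side and 1 on the low side in the third.

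Genotype was compared at P30, heterozygous against wild type. No member was called in either direction, where 3.23% of all genes tested were, 0.903% as higher and 2.32% as lower. DESeq2 called none either. An unadjusted p under 0.05 was reached by 6 of 86 members (6.98%) in edgeR, against 17.3% of all genes. The libraries did not overlap in 31 members (36.0%), against 48.9% of all genes. The median log2 difference was 0.04 over the 86 members and 0.00 over all genes, and 85 of 86 lay within 1.5-fold, against 91.6% of all genes. The 95% interval of a member's log2 difference reached a median of 0.25 to either side, and of 0.33 for the mitochondrial members. These intervals are not adjusted for the number of genes, so a call needed a larger difference for the same spread. Uqcrc2 at 0.30 and Cox7a2l at -0.59 were not called with 2 libraries a group. In the authors' deposited table none of the 86 had an adjusted p under 0.05 for genotype.

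The nearest to a call was Uqcrc2, a core-protein subunit of complex III, with 144 and 132 CPM in heterozygous P30 libraries, against 117 and 108 CPM in wild-type P30 libraries. The groups did not overlap (log2 difference 0.30, SE 0.08, adjusted p = 0.0502 by edgeR), and 26.6% of its exon bases overlap another gene. The wild-type P100 libraries lay between them at 124 and 127 CPM. Upper-quartile scaling gave an adjusted p of 0.0452 by edgeR, so the gene stands at the threshold; without heterozygous replicate 1 the log2 difference was 0.23 (adjusted p = 0.450).

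The protein of Cox7a2l can link complexes III and IV into supercomplexes. The gene had 8.04 and 11 CPM in heterozygous P30 libraries, against 15.4 and 13.4 CPM in wild-type P30 libraries. Both heterozygous libraries were lower (log2 difference -0.59, SE 0.16, adjusted p = 0.0667 by edgeR), and the difference of 1.51-fold was the largest of the 86 for genotype. Its size depended on which heterozygous library was kept: without heterozygous replicate 2 (the library with choroid plexus RNA) the log2 difference was -0.84 with an adjusted p of 0.0300 by edgeR, and without replicate 1 it was -0.38 with an adjusted p of 0.499. Of its 50-base windows 17.7% also occur in 1 other gene. The mice were B6D2, and the part of strain alleles in the Cox7a2l differences, here and against wild-type P100, was not tested.

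By complex, none of the medians for genotype at P30 was far from 0. The 36 nuclear subunits of complex I had a median log2 difference of 0.04, with 24 above and 12 below 0. The 7 core subunits among them all lay above 0, between 0.02 and 0.19. Of all 15841 genes tested, 8027 lay above 0. Within a group, 55 of 79 nuclear members were higher in wild-type P30 replicate 1 and 52 in heterozygous replicate 1, so these signs are not independent either. Nuclear complexes III, IV and V had medians of 0.12, 0.02 and 0.05, and the 9 assembly factors had a median of 0.07. In the comparison with wild-type P100 the same medians were 0.03 for nuclear complex I, 0.20 for III, 0.05 for IV, 0.07 for V and 0.00 for the assembly factors.

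In the other complexes the members with the smallest p were Ndufb11, Atp5f1 and Atp5sl. Ndufb11 had 23.3 and 24.9 CPM in heterozygous P30 libraries, against 31.7 and 26.4 CPM in wild-type P30 libraries (log2 difference -0.27, SE 0.12, adjusted p = 0.256 by edgeR). The X-linked Ndufa1 had 26.3 and 26.1 CPM in heterozygous libraries, against 25.5 and 24.1 CPM in wild-type P30 libraries. The X-linked Cox7b had 47.5 and 38.6 CPM in heterozygous libraries, against 38.3 and 41.2 CPM in wild-type P30 libraries. The signs of the 3 X-linked members differed, and none passed the test. Atp5f1, a subunit of the peripheral stalk of ATP synthase, had 68.2 and 69.9 CPM in heterozygous libraries, against 58.7 and 54.6 CPM in wild-type P30 libraries (log2 difference 0.29, SE 0.12, adjusted p = 0.226 by edgeR). Atp5sl, an assembly factor of complex I despite its symbol, had 29.3 and 25.5 CPM in heterozygous libraries, against 25.6 and 18.7 CPM in wild-type P30 libraries (log2 difference 0.32, SE 0.14, adjusted p = 0.274 by edgeR). Uqcr10 had 16.2 and 18.0 CPM in heterozygous libraries, against 25.3 and 17.8 CPM in wild-type P30 libraries (log2 difference -0.32, SE 0.15, adjusted p = 0.299 by edgeR).

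Heterozygous P30 cortex was last set against wild-type P100 cortex. The groups differ in genotype, in age and in the sex-linked genes Xist and Ddx3y, which cannot be told apart here. This comparison shares the heterozygous libraries with the genotype comparison and the wild-type P100 libraries with the age comparison. Its calls are therefore not separate evidence. Of the 86 members, 4 were higher and 1 was lower in heterozygous P30 cortex (5.81%), where 5.10% of all genes were called, 2.44% as higher and 2.66% as lower. An unadjusted p under 0.05 was reached by 16 members (18.6%), against 19.4% of all genes. The groups did not overlap in 41 members (47.7%), against 50.5% of all genes.

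Ndufa1 had 26.3 and 26.1 CPM in heterozygous P30 libraries, against 18.5 and 17.7 CPM in wild-type P100 libraries, 1.45-fold higher (log2 difference 0.53, SE 0.11, adjusted p = 0.0126 by edgeR). Ndufa8 had 57.5 and 52.7 CPM in heterozygous P30 libraries, against 40.3 and 43.4 CPM in wild-type P100 libraries (log2 difference 0.40, SE 0.10, adjusted p = 0.0281 by edgeR). Both genes had levels in the heterozygous P30 libraries close to those of the wild-type P30 libraries. Ndufa4, a subunit of complex IV, had 79.2 and 76.6 CPM in heterozygous P30 libraries, against 62.2 and 61.3 CPM in wild-type P100 libraries (log2 difference 0.33, SE 0.09, adjusted p = 0.0398 by edgeR), and its wild-type P30 libraries had 78.6 and 69.7 CPM. mt-Nd6 had 111 and 140.0 CPM in heterozygous P30 libraries, against 103 and 67.8 CPM in wild-type P100 libraries (log2 difference 0.55, SE 0.15, adjusted p = 0.0471 by edgeR). Heterozygous replicate 1 and wild-type P100 replicate 1 lay close together, and the groups did not overlap.

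Cox7a2l was the member that was lower, with 8.04 and 11 CPM in heterozygous P30 libraries, against 15.4 and 15 CPM in wild-type P100 libraries (log2 difference -0.68, SE 0.16, adjusted p = 0.0266 by edgeR). Both heterozygous libraries lay below all 4 wild-type libraries, and between the ages the test was not passed (log2 difference 0.09, SE 0.16, adjusted p = 0.800 by edgeR). Among the rest, Uqcrb, a subunit of complex III, had 6.30 and 4.17 CPM in heterozygous P30 libraries, against 3.55 and 3.52 CPM in wild-type P100 libraries (log2 difference 0.56, SE 0.25, adjusted p = 0.225 by edgeR). Atp5g3, a gene for the rotor ring of ATP synthase, had 53.4 and 52.1 CPM in heterozygous P30 libraries, against 43.6 and 44.3 CPM in wild-type P100 libraries (log2 difference 0.26, SE 0.09, adjusted p = 0.112 by edgeR). Of the Uqcrb windows 43.4% also occur in 5 other genes, so its count is uncertain. Atp5j2 had 24.4 and 24.3 CPM in heterozygous P30 libraries, against 17.2 and 20.0 CPM in wild-type P100 libraries (log2 difference 0.40, SE 0.14, adjusted p = 0.139 by edgeR). Ndufb4 had 1.41 and 1.37 CPM in heterozygous P30 libraries, against 1.66 and 2.82 CPM in wild-type P100 libraries (log2 difference -0.67, SE 0.39). Ndufaf3 had 9.32 and 9.76 CPM in heterozygous P30 libraries, against 12.2 and 14.1 CPM in wild-type P100 libraries (log2 difference -0.46, SE 0.14, adjusted p = 0.0900 by edgeR).

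All 5 of these calls were lost without wild-type P100 replicate 2 (adjusted p by edgeR of 0.0858 for Ndufa1, 0.0782 for Ndufa8, 0.180 for Ndufa4, 0.312 for mt-Nd6 and 0.114 for Cox7a2l). Without wild-type P100 replicate 1 only mt-Nd6 of the 5 was kept (adjusted p of the others from 0.0601 for Ndufa1 to 0.167 for Ndufa8) and Cox5b was called as lower, at a log2 difference of -1.18. Of the 5, mt-Nd6 alone was kept without heterozygous replicate 1 (log2 difference 0.71, others with adjusted p from 0.0839 to 0.257), and Cox7a2l alone without heterozygous replicate 2 (log2 difference -0.92, others with adjusted p from 0.0603 to 0.266). Leaving out the first or the second wild-type P30 library ended the call of mt-Nd6, at adjusted p (edgeR) of 0.0547 and 0.0542. DESeq2 called Ndufa1 and Ndufa8, and counts summed over transcripts gave no call. Of all genes tested, DESeq2 called 3.76% and summed counts 3.06%, against 5.10% in the reported fit. Fits without 1 heterozygous or wild-type P100 library also called fewer of all genes. A lost call there does not by itself set a member apart.

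By genome of origin, the mitochondrial members differed more between replicates than the nuclear members did (the plot of deviations by library). Their summed level was 13226 and 15352 CPM in heterozygous P30 libraries, 13876 and 11539 CPM in wild-type P100 libraries and 11014 and 15840 CPM in wild-type P30 libraries. The nuclear members summed to 5773 and 5591 CPM in heterozygous P30, 5249 and 5556 CPM in wild-type P100 and 5561 and 5213 CPM in wild-type P30 libraries. The mitochondrial sum was thus 2.29 and 2.75 times the nuclear sum in heterozygous P30, 2.64 and 2.08 times in wild-type P100 and 1.98 and 3.04 times in wild-type P30 libraries, and the 3 groups overlapped. Both sums are partial, since mitochondrial genes under the minimum count are left out and each nuclear gene enters by 1 transcript. The replicates of a group differed by a median of 0.21, 0.38 and 0.58 log2 units over the 7 mitochondrial members in heterozygous P30, wild-type P100 and wild-type P30 cortex, against 0.07, 0.15 and 0.15 over the 79 nuclear members.

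mt-Nd1, the highest member, had 4863 and 5758 CPM in heterozygous P30 libraries, 5119 and 3930 CPM in wild-type P100 libraries and 3825 and 5699 CPM in wild-type P30 libraries. mt-Cytb, the mitochondrial subunit of complex III, had 2347 and 2906 CPM in heterozygous P30, 2488 and 1994 CPM in wild-type P100 and 1938 and 3214 CPM in wild-type P30 libraries. For both genes the groups overlapped in every comparison. mt-Co1 was the steadiest of the 7, with 2836 and 3014 CPM in heterozygous P30, 2920.0 and 3025 CPM in wild-type P100 and 2712 and 3120.0 CPM in wild-type P30 libraries, and log2 differences of 0.03 for age and 0.00 for genotype at P30 (SE 0.08 each). mt-Nd2, mt-Nd4 and mt-Nd5 had log2 differences of -0.07, -0.15 and 0.03 for age and 0.08, 0.15 and 0.11 for genotype at P30, with none past the test.

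The median log2 difference of the 7 mitochondrial members was -0.07 for age, 0.08 for genotype at P30 and 0.23 for heterozygous P30 against wild-type P100, and that of the 79 nuclear members was 0.00, 0.04 and 0.04. The mitochondrial medians turned on single libraries. For age, the median was -0.34 without wild-type P30 replicate 1, -0.33 without wild-type P100 replicate 1, 0.03 when wild-type P100 replicate 2 was left out and 0.21 when wild-type P30 replicate 2 was. For genotype at P30, it was -0.13 without wild-type P30 replicate 1, -0.03 without heterozygous replicate 2, 0.17 without heterozygous replicate 1 and 0.42 without wild-type P30 replicate 2. In both comparisons the sign of the median changed with the library left out. For heterozygous P30 against wild-type P100, it was 0.05 without wild-type P100 replicate 2, 0.07 without heterozygous replicate 2, 0.35 without heterozygous replicate 1 and 0.41 when wild-type P100 replicate 1 was left out. The mitochondrial members have a median GC content of 37.1%, against 49.95% over all genes tested, and removing each library's trend over GC content moved their median for age to -0.21 and that for genotype to -0.003.

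**Figure D5:**
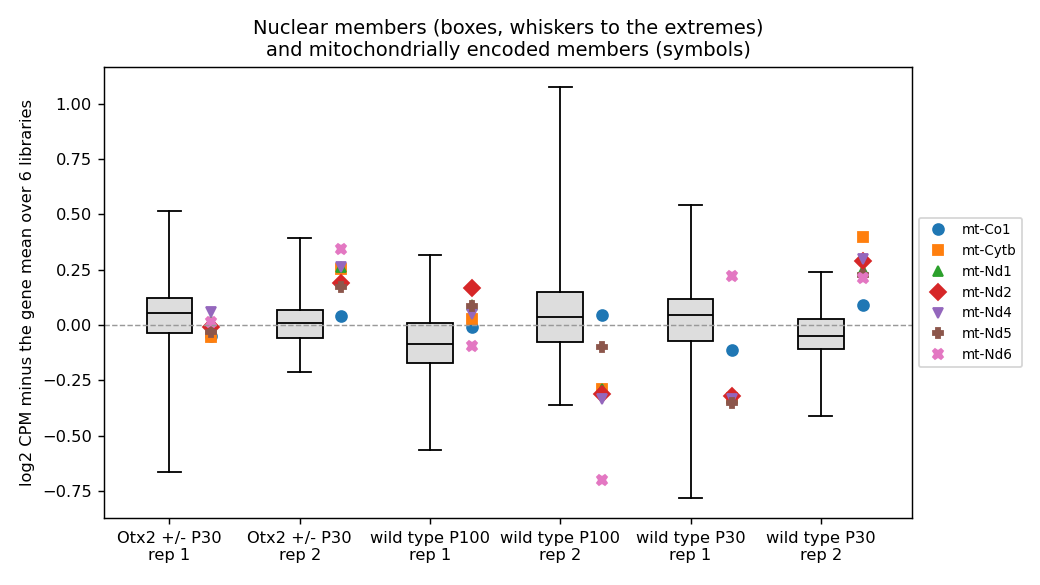
Log2 CPM of each member minus its mean over the 6 libraries, by library, for Otx2 +/- P30, wild-type P100 and wild-type P30 replicates. Boxes hold the 79 nuclear members (whiskers to the extremes) and symbols the 7 mitochondrial members, which lie high in wild-type P30 replicate 2 and, but for mt-Nd6, low in wild-type P30 replicate 1.

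Other genes of the pathway were read from lists of complex II and electron carriers, further assembly factors, mitochondrial gene expression and biogenesis, and mitochondrial ribosomal RNA. Of all genes tested, 7.54% were called for age, 3.23% for genotype at P30 and 5.10% for heterozygous P30 against wild-type P100, in either direction. Of 18 genes for complex II and the carriers, 1 was lower at P100 than at P30 in wild type. None of the 18 was called in the comparisons with heterozygous libraries. The 1 gene called was Cyc1, the cytochrome c1 subunit of complex III, with 61.2 and 60.8 CPM in wild-type P100 libraries, against 99.97 and 69.9 CPM in wild-type P30 libraries (log2 difference -0.47, SE 0.13, adjusted p = 0.0420 by edgeR). None of 32 further assembly factors was called in the 3 comparisons, and their median log2 differences were 0.03 for age, 0.05 for genotype at P30 and 0.03 for heterozygous P30 against wild-type P100.

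Of 21 genes of mitochondrial gene expression and biogenesis, none was called for age or for genotype at P30. In heterozygous P30 against wild-type P100 cortex 1 of the 21 was called, where 5.10% of all genes were. Nrf1, the gene for nuclear respiratory factor 1, was lower in heterozygous P30 libraries, at 21.3 and 22.8 CPM, against 29.5 and 32.2 CPM in wild-type P100 libraries (log2 difference -0.48, SE 0.11, adjusted p = 0.0207 by edgeR), with 26.4 and 24.6 CPM in wild-type P30 libraries. Of the pair of mitochondrial ribosomal RNAs, mt-Rnr2 was lower with age, at 7335 and 7504 CPM in wild-type P100 libraries, against 8713 and 11602 CPM in wild-type P30 libraries (log2 difference -0.45, SE 0.11, adjusted p = 0.0250 by edgeR), while mt-Rnr1 had a log2 difference of -0.18 (SE 0.15).

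Markers of other cells moved in the same comparisons, and their part in the values above was not tested. Of all genes tested, 3.0% were called as higher and 4.54% as lower for age, 2.32% as lower for genotype at P30 and 2.44% as higher in heterozygous P30 against wild-type P100 cortex. Of 10 markers of myelinating oligodendrocytes, 9 were lower at P100 than at P30 in wild type, 10 were lower in heterozygous than in wild-type libraries at P30, and 6 were higher in heterozygous P30 than in wild-type P100 libraries. Their median log2 differences were -0.99, -0.52 and 0.47 in the same order. They summed to 2291 and 2352 CPM in heterozygous P30, 1851 and 1563 CPM in wild-type P100 and 3315 and 3190 CPM in wild-type P30 libraries.

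Of 12 markers of parvalbumin interneurons, 2 were higher for age, none was called for genotype at P30 and 1 was higher in heterozygous P30 against wild-type P100 cortex. They summed to 1547 and 1540 CPM in heterozygous P30, 1517 and 1633 CPM in wild-type P100 and 1421 and 1454 CPM in wild-type P30 libraries. Of 10 markers each, 3 of astrocytes, 2 of excitatory neurons, 2 of microglia and 1 of endothelial cells were lower for age. For genotype at P30, 2 astrocyte, 1 microglial and 1 endothelial marker were lower and no excitatory neuron marker was called. In heterozygous P30 against wild-type P100 cortex, 1 marker each of astrocytes, excitatory neurons and microglia was higher. Of 11 mural cell markers tested, 1 was lower for age and 1 was higher in the comparison with wild-type P100. Of the few markers tested of choroid plexus (4), striated muscle (4) and blood cells (2), 1 of choroid plexus and 1 of blood cells were lower for age, and 1 of choroid plexus was higher in the comparison with wild-type P100.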

How the data were processed

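Layer IV RNA was measured in 6 libraries, 2 a group, grouped by the sample labels. The authors deposited raw read counts per Ensembl transcript, per the file headers; 95533 transcripts were listed, of which 85864 were paired with genes, and 9669 without a gene (13.96% of counts) were left out. Bowtie, HTSeq and DESeq 1.8.3 are listed in the submitters' processing notes, with mm10 as the build; settings, annotation release, strand and multiple matches are not given in the sources used here. Tables of comparisons that the authors deposited hold log2 ratios and adjusted p-values per transcript, and are quoted only where named. Transcript counts totalled 30651483 to 42374860 a library.

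Each gene was represented by its transcript with the highest total, because isoforms share sequence. For 16 of the 86 members that transcript is not annotated as protein coding. Low genes were removed with filterByExpr (minimum count 10, minimum total 15). After TMM scaling, the quasi-likelihood test of edgeR 4.0.16 in R 4.3.3 was run with 1 factor of 3 groups and 3 residual degrees of freedom. P-values were adjusted by Benjamini-Hochberg over 15841 genes, with a threshold of 0.05. CPM are counts scaled to a common library total, and lengths and shared windows come from GENCODE M21. At 23 nuclear members 10% or more of the 50-base windows, and at 14 members 10% or more of the exon bases, are shared with other genes, so their counts are uncertain.

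Simulated data with 200 changed genes were used to test the procedure. For age, recovery was 68.7% at a 1.5-fold, 73.1% at a 2-fold and 95.5% at a 4-fold change among 15603. For genotype at P30 it was 59.7%, 71.6% and 97.0% among 15595. The changed genes were drawn from all genes at any level. Counts had a spread that depended only on level, without shifts shared by the genes of a library, so recovery among the members can differ. DESeq2 1.42.0 was the other test, and limma 3.58.1 fitted the GC and length trends. There were 18 alternatives: other scalings, filters and tests, a replicate block, summed transcripts, GC and length trends, fewer libraries, and protein-coding transcripts, which was chosen after seeing the data. Named genes are those past the threshold, the smallest p and largest difference by complex, all mitochondrial genes, tissue isoforms and called genes of the pathway lists. The members and lists were chosen with earlier results of these data known.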

Additional observations from a re-analysis of the deposited data

How the results depend on the processing

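The number of members called was the result that moved most. The share called over all genes tested moved too. For age it was 7.54% in the reported fit, 7.74% with no filter, 5.13% with DESeq2 and 4.82% with summed transcripts. For genotype at P30 the same fits gave 3.23%, 4.66%, 2.49% and 1.6%. Upper-quartile scaling, the length trend removed and the replicate block gave 3.14%, 3.57% and 4.05% there. For heterozygous P30 against wild-type P100 the fits named for age gave 5.10%, 6.13%, 3.76% and 3.06%. For age (5 called: 4 nuclear and 1 mitochondrial), 9 were called with no filter on low counts (7 nuclear, 2 mitochondrial), 2 with DESeq2 (2 nuclear, 0 mitochondrial) and 0 with summed transcripts (0 of each). Leaving out 1 library in turn gave 0 to 5 in all, 0 to 5 nuclear and 0 to 1 mitochondrial. For genotype at P30 (0 called), 1 nuclear member was called with upper-quartile scaling, 1 with the length trend removed and 1 with the replicate block, and 3 with no filter (2 nuclear, 1 mitochondrial); leaving out 1 library gave 0 to 1 in all and 0 to 1 nuclear. For heterozygous P30 against wild-type P100 (5 called), 11 were called with no filter (7 nuclear, 4 mitochondrial), 2 with DESeq2 (2 nuclear, 0 mitochondrial) and 0 with summed transcripts. The mitochondrial call was 0 with a filter of CPM 1 in 2 libraries and 0 with only the 4 libraries compared. Of all genes tested, 5.41% and 6.12% were called in these fits. Leaving out 1 library gave 0 to 4 in all, 0 to 4 nuclear and 0 to 1 mitochondrial.

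Against the reported values, the medians shifted by less than 1 SD between replicates (0.0660 log2 units for nuclear and 0.293 for mitochondrial members) in all but 2 cases, each with 1 library left out; a shift within that SD could still change the sign of a mitochondrial median. For genotype at P30 the mitochondrial median ran from -0.13 to 0.42, and for heterozygous P30 against wild-type P100 the nuclear median ran from -0.0052 to 0.12. The 10 called differences, and those of Cox7a2l and Uqcrc2 for genotype at P30, kept their sign in the 18 alternatives; the other named genes were not followed there. The replicate numbers were not shown to pair the samples, since the correlations of replicate 1 minus replicate 2 between groups were -0.004, 0.100 and -0.0003. With the block, 5, 1 and 5 members were called. The causes were not tested.

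With 2 libraries a group, unadjusted 95% intervals near 0.25 log2 units to either side limit what can be seen. A call after adjustment needed a larger difference for the same spread, and 6 mitochondrial genes cannot be read from these counts.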
